A study of Mus musculus with 13 samples.

Results

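The comparison described here sets the RNA libraries numbered p4 against those numbered p0, in pacemaker cells (PC) of the sinoatrial node and right atrial cardiomyocytes (RACM) of the mouse. It uses 4 of the 13 samples of the series: PC p0, RACM p0, PC p4 and RACM p4, 1 library each. They were chosen by the cell type and the number in their titles, and cell type entered the test as a block, so each side held 2 libraries. The labels do not define the p number. They give one developmental stage, neonatal, for all 6 RNA libraries, and the file headers show that the alignment files behind both p0 columns carried no number while those behind p2 and p4 did. The number is therefore used here only as the name of a library, and a difference between p4 and p0 cannot be told apart from a difference between the pools, days or runs that went with the number. The 2 libraries numbered p2 served only as a check on direction.

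All hearts carried the genotype Hcn4-GFP/Myh6-mCherry, a green reporter of the pacemaker channel gene Hcn4 and a red reporter of the atrial myosin gene Myh6. The labels state no treatment, strain or sex. For each biological replicate tissue where the node meets the right atrium was pooled from 8 to 10 hearts, digested to single cells and sorted by flow cytometry. The labels do not say whether the PC and RACM libraries of 1 number came from the same pool. PC are the small cells that start the heartbeat, and RACM are the contracting muscle beside them. Not analysed here were 7 ATAC-seq samples (4 PC, 3 RACM).

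Around birth, heart muscle cells of the mouse leave the cell cycle, turn from sugar to fatty acids as fuel, and exchange fetal for adult forms of contractile proteins. In the same days fibroblasts lay down collagen between the muscle cells, and macrophages settle in the tissue. Genes of these programmes, and markers of the cell types that a sort of heart muscle could carry along, are the groups described below. Levels are CPM, a gene's counts relative to the scaled total of its library, and differences are log2 fold changes, p4 minus p0, so that 1 unit is a doubling.

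The 4 libraries held from 14141151 (RACM p0) to 22290996 (PC p4) counts, with 19672921 in PC p0 and 19555932 in RACM p4. Sorting fitted the labels in each of them. Hcn4 stood at 2546 CPM in PC p0 and 2706 CPM in PC p4, against 43.4 CPM in RACM p0 and 36.3 CPM in RACM p4. Isl1, a transcription factor of the node, was at 66.0 and 52.9 CPM in PC p0 and p4, and at 0 counts and 0.0960 CPM in RACM p0 and p4. Markers of other cells differed between libraries, and RACM p4 held the most fibroblast and macrophage marker RNA of all 6. Summed over 15 fibroblast markers, the p0, p2 and p4 libraries of PC had 1058, 1183 and 2497 CPM, and those of RACM had 1978, 4349 and 11960 CPM. Summed over 20 macrophage and leukocyte markers, the values were 41.7, 17.7 and 70.4 CPM in PC, and 267, 683 and 1174 CPM in RACM. In bulk RNA, fewer cells of a type and less RNA per cell cannot be told apart.

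Of 18184 genes tested, 244 were higher and 52 were lower in p4 (edgeR quasi-likelihood test, adjusted p below 0.05), which is 1.34% and 0.286% of the genes tested. Among the calls, both p4 libraries lay above both p0 libraries for 182 of the 244, and below for 41 of the 52, where 16.5% and 16.2% of all genes tested were apart in these ways. The other 73 called genes went the same way within each cell type, while p4 and p0 overlapped across PC and RACM. The median log2 fold change of all genes was -0.0129. As a check on direction, the p2 libraries lay on the p4 side of p0 for 216 of the 244 higher genes in RACM and for 117 in PC, and for 50 and 45 of the 52 lower genes. Over all genes tested the share was 72.2% in RACM and 59.0% in PC. Both comparisons share the p0 libraries, so these counts are no independent support. They lay between p0 and p4 in both cell types for 100 of the 244 and 27 of the 52.

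These counts rest on how the spread is estimated, since 4 libraries leave 1 residual degree of freedom. It holds how far the p4 minus p0 differences of PC and RACM disagree. The rest of the spread is borrowed across genes, with a weight of 13.2 degrees of freedom. The p-values therefore measure no spread between replicate libraries of 1 cell type and number. With all 6 libraries in the fit and p as a factor, 2 genes passed, Hif3a (lower) and Cxcl10 (higher), and 129 had an adjusted p below 0.1, 119 of them among the 296. Without the cell type block no gene passed by edgeR, and 808 had an unadjusted p below 0.05. DESeq2 called 346 genes and limma-voom 563, of which 287 and 290 were among the 296. Scaling to the summed sarcomere transcripts left 117, with 112 higher and 5 lower, and moved the median of all genes to 0.218. Every called gene that could be fitted kept its direction in each of these settings. Leaving a p0 or p4 library out of the fit of 6 leaves 1 library on that side, and it changes how many genes pass overall. List counts given below for a library left out move with that total, so they are not particular to the list. Leaving out 1 library at a time from the fit of 6 gave from 70 calls (without RACM p0) to 758 (without PC p4).

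**Figure D1:**
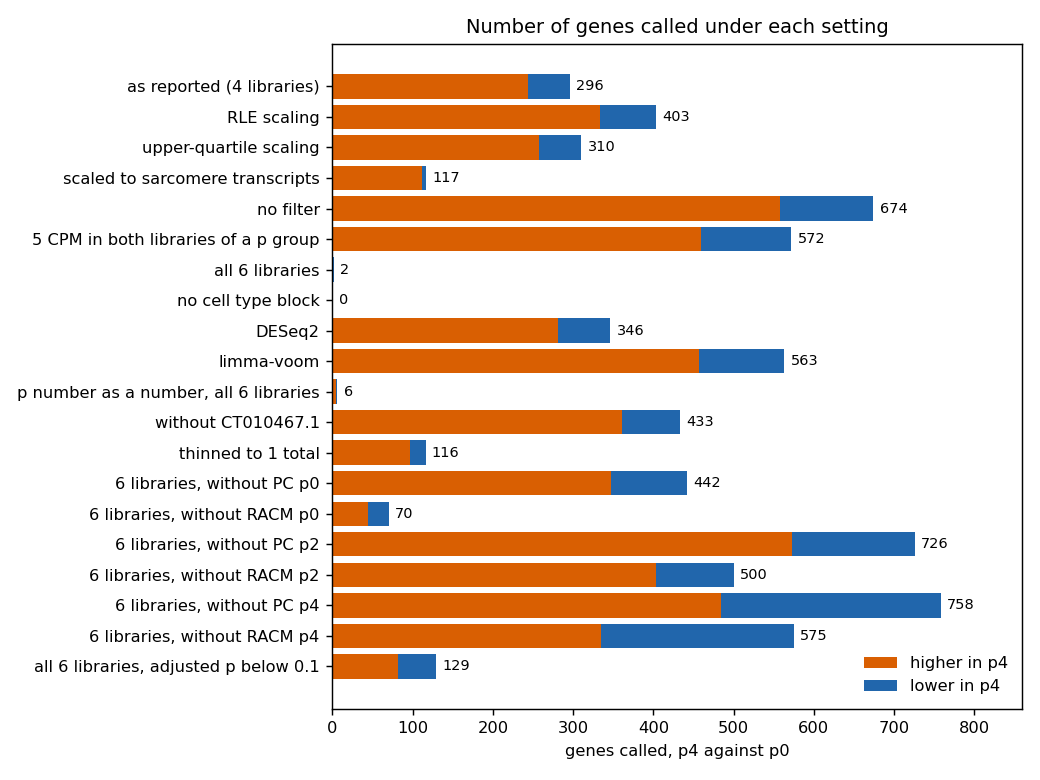
Number of genes called in p4 against p0 (x axis) under each setting of the test (y axis), split into higher (orange) and lower (blue). The count was 296 as reported, 0 without the cell type block, 2 with all 6 libraries and 758 without PC p4.

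The size of the differences was compared between cell types within 1 library a side. Both ratios could be formed for 223 of the 244 higher genes, and the RACM ratio was the larger in 174 of them. The medians were a log2 ratio of 1.45 in PC and 2.28 in RACM. For the lower genes the RACM ratio was the larger fall in 27 of 49, with medians of -1.31 in PC and -1.48 in RACM. These ratios have no replicate check. A test of the product of cell type and p number over all 6 libraries called 0 of 19659 genes by edgeR (0% called, smallest adjusted p = 0.995, with 807 genes at an unadjusted p below 0.05). Its sign compares the log2 difference in PC with that in RACM, so a deeper fall in RACM counts as higher in PC. DESeq2 called 26 genes, by this sign 5 higher in PC and 21 higher in RACM. With 1 library left out the count ran from 9 (without RACM p0 or RACM p4) to 733 (without PC p0), with 525 without PC p4, 297 without PC p2 and 21 without RACM p2.

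**Figure D2:**
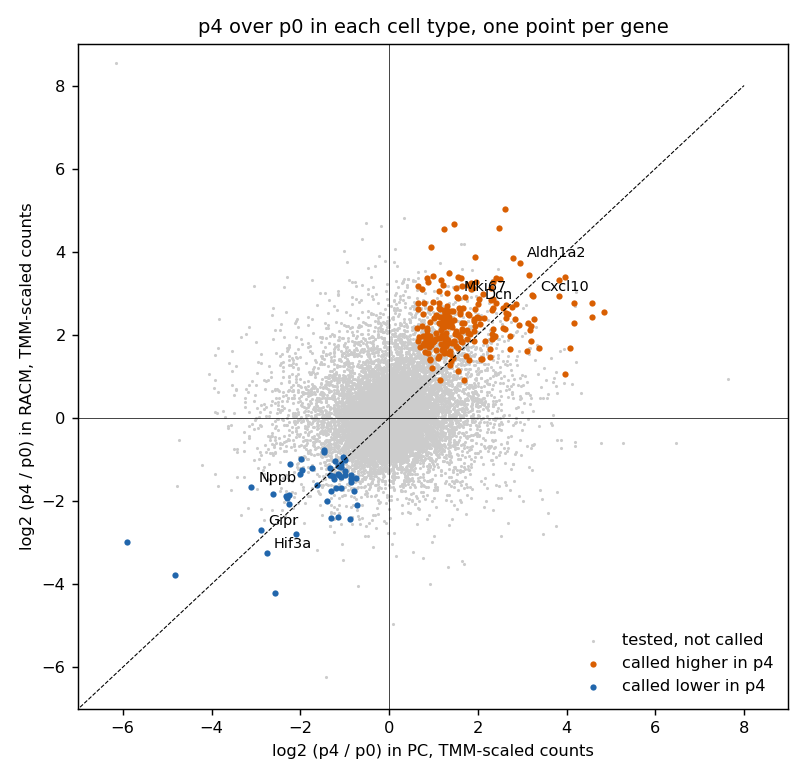
Log2 of the p4 over p0 ratio of scaled counts in PC (x axis) and in RACM (y axis), 1 point per gene with more than 3 counts in each of the 4 libraries, with called genes in orange (higher) and blue (lower) and the diagonal dashed. Of the 296 called genes, 272 could be drawn, and the orange points lie mostly above the diagonal, on the RACM side.

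Hif3a, a member of the hypoxia-inducible factor family that can restrain the other members, had the smallest p of all genes and fell. It stood at 174, 66.8 and 25.7 CPM in the p0, p2 and p4 libraries of PC, and at 158, 60.2 and 16.6 CPM in those of RACM. Both p4 libraries were far below both p0 libraries, and p2 lay between in each cell type. The log2 fold change was -3.00 ± 0.26 (SE, edgeR adjusted p = 1.90e-04), and it stayed called with all 6 libraries (adjusted p = 0.00938). Among 20 genes of the hypoxia response, 2 fell and none rose, against 0.286% and 1.34% of all genes, with a median of -0.39. Leaving out 1 library moved this median from -0.54 (without RACM p4) to -0.21 (without PC p4). The other gene that fell was Pdk1, a kinase that holds back the entry of pyruvate into mitochondria, at 139 and 69.8 CPM in PC p0 and p4 and 190 and 78.6 CPM in RACM (log2 fold change -1.13 ± 0.23, adjusted p = 0.0243). Hif1a, the best known factor of the family, had a log2 fold change of -0.03, and its target Vegfa one of -0.06.

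Gipr, the receptor of the gut hormone GIP, fell from 9.74 to 1.32 CPM in PC and from 48.3 to 7.44 CPM in RACM (log2 fold change -2.78 ± 0.34, adjusted p = 0.00137). Its p2 libraries, at 3.75 and 24.6 CPM, lay between. Nppb, which encodes the natriuretic peptide BNP that stretched heart muscle releases, fell from 23.8 to 2.77 CPM in PC and from 235 to 74.1 CPM in RACM (log2 fold change -2.31 ± 0.32, adjusted p = 0.00318). The p2 libraries were lower still, at 1.25 and 34.5 CPM. Nppa, the gene of the sister peptide ANP, was at 241, 74.1 and 125 CPM in the p0, p2 and p4 libraries of PC and at 2355, 1704 and 2403 CPM in RACM, and did not pass (adjusted p = 0.671). Of the exon bases of Nppa, 61.5% are shared with another gene.

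Fmn1, a formin that builds actin cables, fell from 40.9 to 6.68 CPM in PC and from 42.9 to 12.002 CPM in RACM, with p2 between at 26.9 and 31.3 CPM (log2 fold change -2.22 ± 0.31). Amotl1, an angiomotin that binds the growth regulator YAP, fell from 549 to 140 CPM in PC and from 434 to 182 CPM in RACM. Its p2 libraries again lay between, at 252 and 279 CPM. Txnip, an inhibitor of thioredoxin and of glucose uptake, fell from 285 to 115 CPM in PC and from 477 to 140 CPM in RACM, whereas its p2 libraries (264 and 515 CPM) stayed near p0. Of the exon bases of Txnip, 19.4% are shared with another gene. Mgp, a matrix protein that keeps tissue from calcifying, fell from 85.7 to 34.5 CPM in PC and from 252 to 47.5 CPM in RACM, opposite to most matrix genes. The adjusted p of these 4 genes ranged from 0.00318 to 0.00596 over 4 libraries, and from 0.0533 to 0.0698 with all 6.

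Fkbp5, a glucocorticoid target and chaperone of steroid receptors, fell from 27.3 to 5.69 CPM in PC and from 27.8 to 7.68 CPM in RACM (log2 fold change -2.06 ± 0.33, adjusted p = 0.00596, and 0.229 with all 6 libraries). Its p2 libraries were at 1.14 and 8.18 CPM, so p0 stood apart from p2 and p4 alike. Of 17 measured targets of glucocorticoid and thyroid hormone, Fkbp5 was the only gene called, where 1.63% of all genes were called in either direction. The list's median was -0.29. Grb14, an adaptor that dampens insulin receptor signalling, fell from 114 to 51.1 CPM in PC and from 155 to 29.8 CPM in RACM. Sult1a1, a sulfotransferase, and Stk32b, a kinase, had log2 fold changes of -2.11 ± 0.36 and -2.42 ± 0.41.

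**Figure D3:**
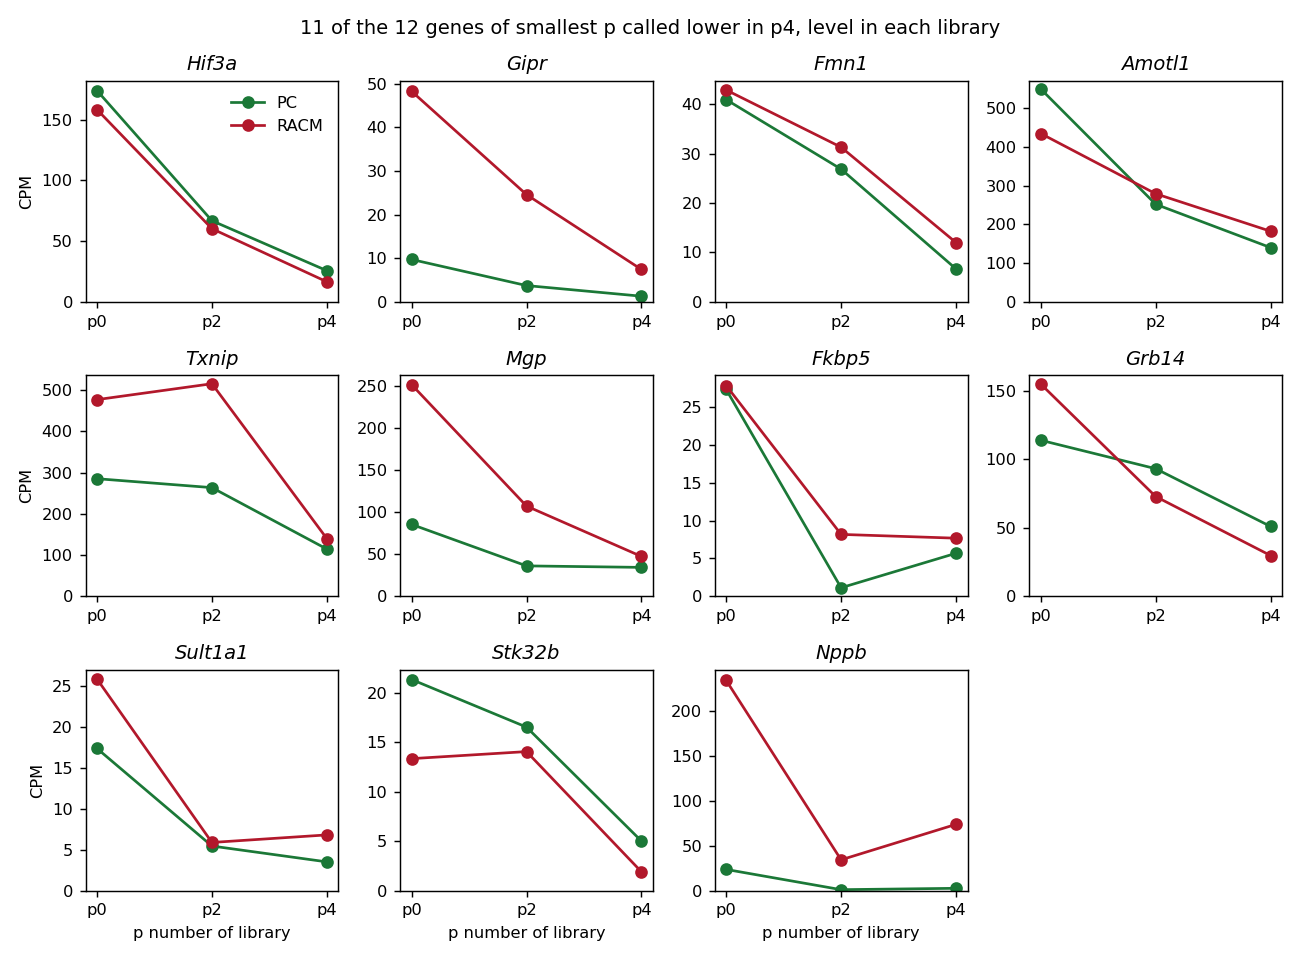
Level in CPM (y axis, from 0) of 11 of the 12 genes of smallest p that were called lower in p4, by p number of the library (x axis), with PC in green and RACM in red and 1 library per point. Hif3a, Gipr, Fmn1 and Amotl1 fall from p0 over p2 to p4 in both cell types, Txnip stays high in p2, and Fkbp5 and Nppb are already low in p2.

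Further genes called lower were looked up after their values were seen. Acot1, a thioesterase of fatty acyl-CoA, was at 67.2 and 29.2 CPM in PC p0 and p4 and at 66.0 and 20.6 CPM in RACM p0 and p4. Scd2, a desaturase of fatty acids, fell from 451 to 178 CPM in PC and from 357 to 155 CPM in RACM. Aldh6a1, which degrades valine, fell from 150 to 68.1 CPM and from 124 to 48.0 CPM, and 18.6% of its exon bases are shared with another gene. The 2 receptor subunit genes Htr3a (serotonin) and Gria1 (glutamate) were also called lower. Htr3a had 236 counts in PC p0, 11 in PC p2 and 3 in PC p4, against 18, 0 and 1 in RACM. Gria1 went from 149 to 80.5 CPM in PC and from 59.1 to 10.99 CPM in RACM.

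Cell division genes were higher in p4 in both cell types. Of 35 measured genes of the cell cycle and mitosis list, 14 rose and none fell, where 1.34% of all genes rose, and the list's median log2 fold change was 1.45 (1.18 in PC and 1.69 in RACM). Both p4 libraries lay above both p0 libraries for 31 of the 35, against 16.5% of all genes. Summed over the list, the p0, p2 and p4 libraries of PC had 826, 691 and 1447 CPM, and those of RACM had 822, 898 and 2128 CPM. The p0 sums of the cell types were thus alike, p2 stayed near p0, and p4 stood above both.

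Mki67, the proliferation marker Ki-67, was at 74.8, 53.0 and 215 CPM in the p0, p2 and p4 libraries of PC, and at 59.7, 109 and 451 CPM in those of RACM. Each p4 library exceeded every other library of both cell types, and PC p2 was below PC p0. The log2 fold change was 2.22 ± 0.31 (adjusted p = 0.00320). Ube2c, which tags mitotic proteins for destruction, was at 14.6, 11.7 and 54.8 CPM in PC and at 17.2, 13.9 and 61.9 CPM in RACM (log2 fold change 1.88 ± 0.26, adjusted p = 0.00335). Of its exon bases, 22.8% are shared with another gene. Top2a, the topoisomerase that untangles replicated DNA, was at 40.1, 29.5 and 92.7 CPM in PC and at 36.3, 50.4 and 184 CPM in RACM. Kif11, the motor that separates the spindle poles, was at 17.6, 7.22 and 46.9 CPM in PC and at 17.3, 19.9 and 78.7 CPM in RACM. In Ube2c, Top2a and Kif11 both p4 libraries stood clear of the other 4.

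The other genes of the list that rose were the cyclins Ccna2, Ccnb1 and Ccnb2, the kinetochore genes Bub1, Cenpe and Cenpf, the spindle genes Prc1 and Nusap1, the survivin gene Birc5 and the ribonucleotide reductase subunit Rrm2. Ccna2 went from 20.0 to 52.2 CPM in PC and from 24.3 to 70.7 CPM in RACM, with 2.73 and 17.0 CPM in p2. The replication genes Mcm7, Mcm2 and Pcna did not pass: Mcm7 had a log2 fold change of 1.45 ± 0.35 (adjusted p = 0.0548), Mcm2 one of 0.88 and Pcna one of 0.68 ± 0.23 (adjusted p = 0.205). Both p4 libraries of Pcna, at 109 and 111 CPM, nonetheless lay above both p0 libraries, at 67.5 and 69.6 CPM. Ccnd2, a cyclin of the early cycle, was level at 308 and 304 CPM in PC and 286 and 249 CPM in RACM. Of 10 cell cycle inhibitors measured, none passed, with a median of -0.14. Of 15 replication-dependent histone genes none passed either, while 9 of the 15 had both p4 libraries above both p0 libraries, against 16.5% of all genes.

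Which cells the division genes came from was not measured. Fibroblast and macrophage marker sums were also higher in p4 (1058 to 2497 and 41.7 to 70.4 CPM in PC, 1978 to 11960 and 267 to 1174 CPM in RACM), and their part in the cell cycle counts was not tested. With 1 library left out, the median log2 fold change of the division genes ran from 1.06 (without RACM p0) to 1.78 (without PC p0). With all 6 libraries none of them was called.

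The promoters of the 3 division genes of smallest p are shown because many genes of this programme share a pair of short promoter elements, the CCAAT box and the cell cycle homology region TTTGAA, which were chosen for the search after the values were seen. Each is given from RefSeq (build GRCm38.p6), 5′ to 3′ on the gene's strand, over the 250 bases before the start site. Capitals mark CCAAT and TTTGAA read on either strand, so that ATTGG and TTCAAA are the same elements read on the other strand. Mki67 lies at chr7:135716380-135716629 on the minus strand, Ube2c at chr2:164769679-164769928 on the plus strand and Kif11 at chr19:37376132-37376381 on the plus strand.
Mki67: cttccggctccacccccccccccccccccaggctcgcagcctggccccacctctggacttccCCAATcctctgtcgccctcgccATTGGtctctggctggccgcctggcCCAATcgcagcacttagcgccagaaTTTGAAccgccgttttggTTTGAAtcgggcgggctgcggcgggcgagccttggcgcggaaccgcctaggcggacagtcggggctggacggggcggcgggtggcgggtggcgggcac
Ube2c: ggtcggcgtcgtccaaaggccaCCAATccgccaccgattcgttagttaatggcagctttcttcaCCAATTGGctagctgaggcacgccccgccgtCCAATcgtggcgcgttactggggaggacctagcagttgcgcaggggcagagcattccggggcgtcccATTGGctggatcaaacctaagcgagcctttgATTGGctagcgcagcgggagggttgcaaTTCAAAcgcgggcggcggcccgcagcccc
Kif11: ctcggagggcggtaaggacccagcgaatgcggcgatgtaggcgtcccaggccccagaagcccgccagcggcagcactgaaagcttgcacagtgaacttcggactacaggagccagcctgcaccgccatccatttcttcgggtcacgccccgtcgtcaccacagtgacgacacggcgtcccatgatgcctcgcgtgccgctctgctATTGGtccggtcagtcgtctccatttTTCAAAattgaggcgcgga
The Mki67 window holds 3 CCAAT and 2 TTTGAA matches, that of Ube2c 6 and 1, of which 2 CCAAT matches on opposite strands overlap, and that of Kif11 1 of each. Of the 13 called division genes with an entry, 11 have CCAAT (84.6%) and 6 have TTTGAA (46.2%) in this window. Over all 32851 promoters, each counted singly, the shares are 33.8% and 16%. A gene of the list counts if any of its promoters has the element, so its shares are not strictly comparable with these. Among 14 genes of the list that were not called and have an entry, 11 have CCAAT (78.6%) and 3 have TTTGAA (21.4%), so CCAAT was about as frequent in the genes that were not called. A match is a run of letters and shows no binding.

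Collagen and matrix genes gave the most higher calls of the 39 lists. Of 40 measured, 24 rose and none fell, against 1.34% of all genes, and the median log2 fold change was 1.67 (0.93 in PC and 2.48 in RACM). Summed over the list, the p0, p2 and p4 libraries of PC had 4681, 4494 and 7011 CPM, and those of RACM had 5319, 9050 and 21550 CPM. The RACM sum was higher at each step, and the PC sum only in p4.

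Col1a1, a chain of the main fibrillar collagen, was at 130, 191 and 354 CPM in the p0, p2 and p4 libraries of PC and at 228, 539 and 1350 CPM in RACM. Both p4 libraries were above both p0 libraries, with p2 between in each cell type, and the log2 fold change was 2.01 ± 0.29 (adjusted p = 0.00406). Col3a1, the collagen of soft tissue, was at 219, 257 and 641 CPM in PC and at 417, 1027 and 3094 CPM in RACM (2.22 ± 0.33, adjusted p = 0.00430). Col15a1, a collagen of the basement membrane zone, had the smallest p of the list. It was at 6.51, 5.92 and 36.8 CPM in PC and at 12.54, 53.6 and 128 CPM in RACM (2.93 ± 0.29, adjusted p = 4.01e-04). The small proteoglycan Dcn was at 37.3, 39.8 and 150 CPM in PC and at 97.7, 231 and 653 CPM in RACM (2.37 ± 0.26). Mfap4, a protein of elastic microfibrils, was at 30.2 and 98.5 CPM in PC p0 and p4 and at 34.4 and 256 CPM in RACM.

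Also called higher were the fibrillar chains Col1a2 and Col5a1, the microfibril collagens Col6a1, Col6a2 and Col6a3, the further collagens Col12a1, Col14a1 and Col16a1, and Fn1, Eln, Fbn1, Fbln2, Lum, Bgn, Ogn, Tnc, Tnxb, Mfap5 and Postn. Postn, periostin, a secreted protein of fibroblasts, was at 237, 197 and 516 CPM in PC and at 618, 1384 and 4205 CPM in RACM, so that its PC p4 library lay below RACM p0. The basement membrane chains Col4a1 and Col4a2 did not pass (log2 fold change 0.35 ± 0.24 and 0.46 ± 0.23), nor did the inhibitors of matrix proteases Timp1, Timp2 and Timp3 (0.01, 0.49 and -0.08). Fbn2, a fibrillin of early life, was at 618 and 400 CPM in PC and 194 and 237 CPM in RACM.

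Of 15 fibroblast markers measured, 9 rose and none fell, against 1.34% and 0.286% of all genes, with a median of 1.95. Of these 9, 8 also stand in the matrix list, so the counts are not independent, and the ninth was Dpt, dermatopontin, a small matrix protein. Without RACM p4, 8 of the 15 fibroblast markers and 22 of the 40 matrix genes were called, and without RACM p0, 8 and 13 were. With all 6 libraries none was called in either list, and the lowest median over the settings was 1.43 for fibroblast markers and 0.93 for matrix genes, in both cases without RACM p0. Whether fibroblasts carried along in the sort account for the matrix genes was not tested.

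**Figure D4:**
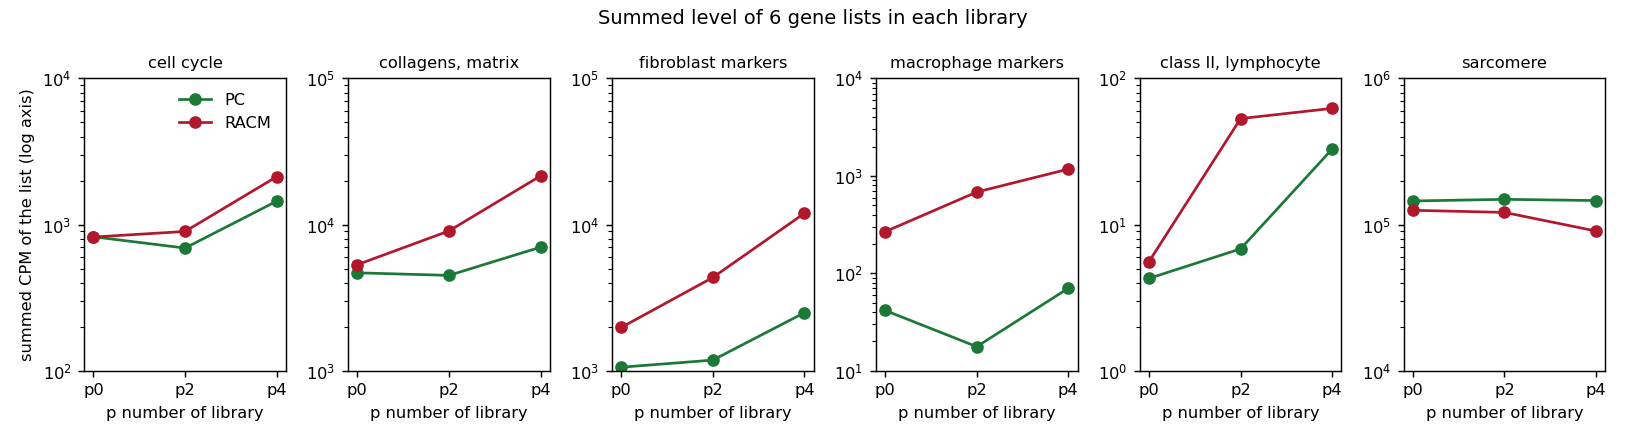
Summed CPM (y axis, log scale) of 6 gene lists by p number of the library (x axis), with PC in green and RACM in red and 1 library per point. Fibroblast markers go from 1058 (p0) to 2497 CPM (p4) in PC and from 1978 to 11960 CPM in RACM, while the sarcomere list is level in PC and is at 125300 and 90350 CPM in RACM p0 and p4.

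Aldh1a2, which makes retinoic acid in the epicardium, had the smallest p of the higher genes. It was at 1.34, 1.08 and 10.3 CPM in the p0, p2 and p4 libraries of PC and at 6.48, 18.8 and 86.5 CPM in RACM. The 2 p4 libraries were the highest of their cell type, and the log2 fold change was 3.39 ± 0.33 (adjusted p = 4.01e-04, and 0.0533 with all 6 libraries). It was the only one of 10 epicardial and mesothelial markers that was called, where 1.63% of all genes were called in either direction. Tcf21, a factor of epicardium and fibroblasts, was level in PC at 9.07 and 8.74 CPM, and at 10.7 and 77.0 CPM in RACM (adjusted p = 0.275). The mesothelial markers Upk1b, Msln, Lrrn4, Rspo1 and Bnc1 had too few counts to be tested.

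Car3 and Serpinf1 also stood among the 12 higher genes of smallest p. Car3, a carbonic anhydrase of slow muscle and fat, was at 0.223, 0.853 and 12.7 CPM in the p0, p2 and p4 libraries of PC and at 0.207, 1.68 and 13.97 CPM in RACM (adjusted p = 5.38e-04). With 4 counts in PC p0 and 3 in RACM p0, Car3 could pass the expression filter only through p4. Serpinf1, a secreted factor that restrains vessel growth, was at 3.39, 11.1 and 23.1 CPM in PC and at 7.30, 13.3 and 46.7 CPM in RACM (log2 fold change 2.72 ± 0.31). In both genes the 3 libraries of each cell type rose in the order p0, p2, p4.

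Macrophage and leukocyte markers were higher in p4. Of 20 measured, 7 rose and none fell, against 1.34% and 0.286% of all genes, with a median of 1.502 (0.49 in PC and 2.16 in RACM). Medians within a cell type cover only genes with more than 3 counts in both of its libraries, here 16 in PC and 20 in RACM. None of the 20 had both p4 libraries above both p0 libraries, since RACM p0 lay above PC p4 for all 20. Mrc1, the mannose receptor of tissue macrophages, was at 3.01, 1.20 and 14.8 CPM in the p0, p2 and p4 libraries of PC and at 18.3, 69.8 and 160 CPM in RACM (log2 fold change 2.75 ± 0.30, adjusted p = 5.38e-04). Ptprc, the leukocyte antigen CD45, was at 0.556, 0 and 5.17 CPM in PC and at 6.89, 25.3 and 53.7 CPM in RACM (3.05 ± 0.36, adjusted p = 0.00111). Adgre1, Csf1r, C1qc, Itgam and Lyve1 were also called, although 68.7% of the exon bases of Itgam are shared with another gene, while Cd68, Lyz2 and Tyrobp were not (log2 fold change 0.95, 0.73 and 0.43). With all 6 libraries none of the list was called, and the edgeR adjusted p was 0.152 for Mrc1 and 0.229 for Ptprc. Without RACM p0 the list's median was 0.13.

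Genes of class II antigen presentation were near 0 in p0. H2-Ab1, a class II chain, had 3 and 4 counts in PC p0 and RACM p0, and 204 counts (9.59 CPM) in PC p4 and 11.6 CPM in RACM p4. In p2 it was at 0 in PC and at 8.30 CPM in RACM. The log2 fold change was 5.56 ± 0.68 (adjusted p = 0.00137). The class II genes H2-Aa and H2-Eb1 and the invariant chain Cd74 were called too. Thus 4 of the 6 genes measured in the class II and lymphocyte list rose, against 1.34% of all genes. A gene near 0 in p0, such as H2-Ab1, could pass the expression filter only through p4. The share called in this list is therefore not comparable with that of all genes. Their regulator Ciita did not pass, at 3.39 and 1.13 CPM in PC and 1.31 and 1.73 CPM in RACM. Of the 14 listed genes, 8 had too few counts to be tested, among them the B cell markers Cd79a and Ms4a1. With all 6 libraries none of the list was called, and the edgeR adjusted p of H2-Ab1 was 0.216.

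Rag1, the recombinase of developing T and B cells, had 0 counts in p0 and p2 of both cell types, 45 counts in PC p4 and 22.3 CPM in RACM p4. Against a floor of 3 counts over the p0 libraries it was at least 131-fold higher in p4 (edgeR adjusted p = 6.98e-04, and 0.0698 with all 6 libraries). Cd4 and Cd8a, coreceptors of T cells, were called as well. Cd8a had 3 counts in p0 and 281 in p4 over both cell types, which is 72.3 times as many CPM (95% counting interval 24.5 to 353). Floors and intervals here cover counting error only. These 3 were the only called genes among 8 measured of the skeletal muscle and thymus list (1.34% of all genes were called higher), and the count was 1 without RACM p4, 0 without RACM p0, 0 with all 6 libraries and 2 by DESeq2. Its muscle genes Myh8 and Ckm did not pass (Myh8 log2 fold change 0.07, Ckm -0.59). The list has 20 genes, and Rag2, Ptcra and Dntt were among those that did not pass the expression filter. Rag1 and Cd8a could pass that filter only through p4. The share called in this list is therefore not comparable with that of all genes.

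Further T cell genes were looked up after their values were seen. Themis, of T cell selection, had 0 counts in p0 and p2, 175 in PC p4 and 206 in RACM p4, at least 98.0-fold higher than p0. The receptor chain Trbc1 had 117 and 207 counts in PC p4 and RACM p4, Trbc2 had 12 and 351, and the thymic protease Prss16 had 111 and 42, all with 0 in p0 and p2. Cd3e, the defining marker on the lymphocyte list, had 0 counts in PC p4 and 106 in RACM p4, and Dntt had 0 and 80. RNA of the T cell genes named here was thus highest in p4, in different proportions of its genes in PC and RACM. It was not absent elsewhere: the T cell kinase Lck had 23 counts in PC p0 and 1 in RACM p0 (33 and 173 in p4, edgeR adjusted p = 0.480), and Cd8a had 20 counts in RACM p2. The source of this RNA was not tested.

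Several genes of inflammation were called higher. Cxcl10, a chemokine that draws T cells and is switched on by interferon, was 1 of the 2 genes that passed with all 6 libraries (adjusted p = 0.0244). It was at 1.95, 5.69 and 18.4 CPM in the p0, p2 and p4 libraries of PC and at 9.44, 30.3 and 71.9 CPM in RACM. It rose from p0 over p2 to p4 in both cell types, and the log2 fold change over 4 libraries was 3.07 ± 0.31 (adjusted p = 4.01e-04). Its promoter is shown because it carries the interferon element, a pair of GAAA runs with any 2 bases (NN) between them, marked in capitals and likewise chosen after the values were seen. It is given from RefSeq (GRCm38.p6) over the 250 bases before the start, chr5:92348890-92349139 on the minus strand.
Cxcl10: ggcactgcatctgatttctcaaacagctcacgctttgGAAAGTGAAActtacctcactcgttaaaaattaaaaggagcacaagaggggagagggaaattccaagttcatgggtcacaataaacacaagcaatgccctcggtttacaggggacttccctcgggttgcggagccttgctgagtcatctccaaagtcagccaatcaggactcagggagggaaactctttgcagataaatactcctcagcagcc
Matches to this element on either strand stand in 3.0% of all promoters over the same length.

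Of 26 interferon response genes measured, 3 rose and none fell, against 1.34% and 0.286% of all genes, with a median of 0.90 (0.20 over 19 genes in PC and 1.47 over 24 in RACM). They were Ifitm3, Oasl2 and the peptide transporter Tap1. Ifitm3, which blocks entry of viruses, was at 9.96 and 22.6 CPM in PC p0 and p4 and at 27.2 and 84.8 CPM in RACM. The interferon genes Irf7, Ifit1 and Mx1 did not pass, with log2 fold changes of 0.43, 0.18 and -0.16. The list's count was 0 without RACM p0 and with all 6 libraries, and 1 without PC p0 or PC p4. Sele, an adhesion molecule of inflamed endothelium, was at 6.45, 9.73 and 22.6 CPM in PC and at 33.6, 80.4 and 186 CPM in RACM (log2 fold change 2.15 ± 0.27). Among 17 genes of complement and coagulation, 5 rose and none fell, against 1.34% and 0.286% of all genes: C1qc, Serping1, F13a1, Plat and Plau. This count was 0 without RACM p0 and with all 6 libraries, 1 without PC p4 and 8 without PC p2.

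The neutrophil chemokine Cxcl1, a gene picked once the values were known, was at 19.5, 28.8 and 47.0 CPM in the p0, p2 and p4 libraries of PC and at 63.4, 127 and 330 CPM in RACM (log2 fold change 1.84 ± 0.28). The cytokine Il6 was at 1.89, 3.98 and 5.92 CPM in PC and at 7.78, 13.6 and 34.2 CPM in RACM. Both rose with the p number in each cell type. Cxcl2, Nlrp3, Il1a, Ccl3, Ccl4, Ptgs2 and Tnfaip6 were called higher too, and each was lower in PC p2 than in PC p0 except Tnfaip6. Macrophage marker RNA moved with these genes in RACM. In PC it summed to 41.7, 17.7 and 70.4 CPM in p0, p2 and p4, lowest in p2 like these genes except Cxcl1, Il6 and Tnfaip6. Its part in them was not tested. Other genes of inflammation did not rise in both cell types. From p0 to p4, Il1b went from 2.84 to 0.188 CPM in PC and from 13.5 to 38.5 CPM in RACM. Nfkbiz went from 51.6 to 40.3 CPM in PC and from 70.6 to 255 CPM in RACM.

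Of 19 measured genes of the pacemaker programme none was called, where 1.63% of all genes were called in either direction. The median was -0.03. The median depended on the libraries: with 1 left out of the fit of 6 it ran from -0.17 (without RACM p0) to 0.29 (without PC p0). Hcn4 had a log2 fold change of -0.08 ± 0.26, Tbx3, a repressor of the working muscle programme, -0.03, and Shox2, another factor of the node, -0.41 ± 0.24. From p0 to p4, Tbx3 went from 351 to 281 CPM in PC and from 4.06 to 5.23 CPM in RACM. Shox2 went from 352 to 238 CPM in PC and from 7.65 to 6.58 CPM in RACM. Scaling to sarcomere transcripts, which moves the median of all genes to 0.218, put Hcn4 at 0.15 and Tbx3 at 0.20, no further from 0 than that shift. Cacna1g, a T-type calcium channel gene, was higher in p4 in both cell types without passing. It was at 167, 257 and 291 CPM in the p0, p2 and p4 libraries of PC and at 35.1, 66.6 and 64.9 CPM in RACM (log2 fold change 0.84 ± 0.23, adjusted p = 0.0891).

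Myom2, of the M-band of the sarcomere, was the only gene called among 26 sarcomere genes, where 1.63% of all genes were called in either direction. It fell from 441 to 217 CPM in PC and from 553 to 280 CPM in RACM, with p2 between at 282 and 416 CPM (log2 fold change -1.003 ± 0.23, adjusted p = 0.0449, and 0.0698 with all 6 libraries). With 1 library left out of the fit of 6, the median of the sarcomere genes ran from -0.41 (without PC p4) to -0.05 (without RACM p4). Of 10 fetal forms none was called, and of 10 adult forms only Myom2. Myh6, the atrial myosin heavy chain behind the red reporter, was at 19522 and 15316 CPM in PC p0 and p4 and at 20666 and 11509 CPM in RACM (log2 fold change -0.60 ± 0.37, adjusted p = 0.657). The fetal chain Myh7 was at 221 and 172 CPM in PC and at 321 and 127 CPM in RACM (adjusted p = 0.155). The troponin genes Tnni1, the fetal form, and Tnni3, the adult form, had log2 fold changes of -0.55 ± 0.25 and -0.20 ± 0.29, and neither passed. Sarcomere scaling, with the shift given above, put them at -0.32 and 0.03. Of 22 calcium handling genes and 20 ion channels of conduction none was called. With 1 library left out, the median of the calcium list ran from -0.31 (without PC p0) to -0.12 (without RACM p0).

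Of 30 genes of fatty acid uptake and oxidation, 1 fell and none rose, against 0.286% and 1.34% of all genes. Of the 30, 29 had a negative log2 fold change. Both p4 libraries lay below both p0 libraries for 14, against 16.2% of all genes. The median was -0.42 (-0.17 in PC and -0.76 in RACM). With 1 library left out, this median ran from -0.72 (without PC p4) to -0.22 (without RACM p4). Pdk4, which spares glucose when fat is burned, was at 261, 198 and 174 CPM in the p0, p2 and p4 libraries of PC and at 207, 153 and 94.2 CPM in RACM (-0.86 ± 0.24, adjusted p = 0.0998). Fabp4, a fatty acid binding protein of endothelium and fat, was the gene that went the other way, at 14.2 and 25.5 CPM in PC and at 9.78 and 25.6 CPM in RACM (adjusted p = 0.106). Of 44 genes of oxidative phosphorylation none was called, and of 24 of glycolysis only Pdk1. The medians of these lists were -0.49 and -0.48 without PC p4, and 0.07 and -0.08 without RACM p4. Oxidative phosphorylation genes summed to 29330, 22840 and 29910 CPM in PC and to 23140, 14420 and 15250 CPM in RACM, so that in PC the p2 library was the low one. The sarcomere list also summed lower in RACM p4 (90350 CPM) than in RACM p0 (125300 CPM). Fibroblast and macrophage markers took a larger share of the counts in RACM p4, and their part in these lower sums was not tested.

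**Figure D5:**
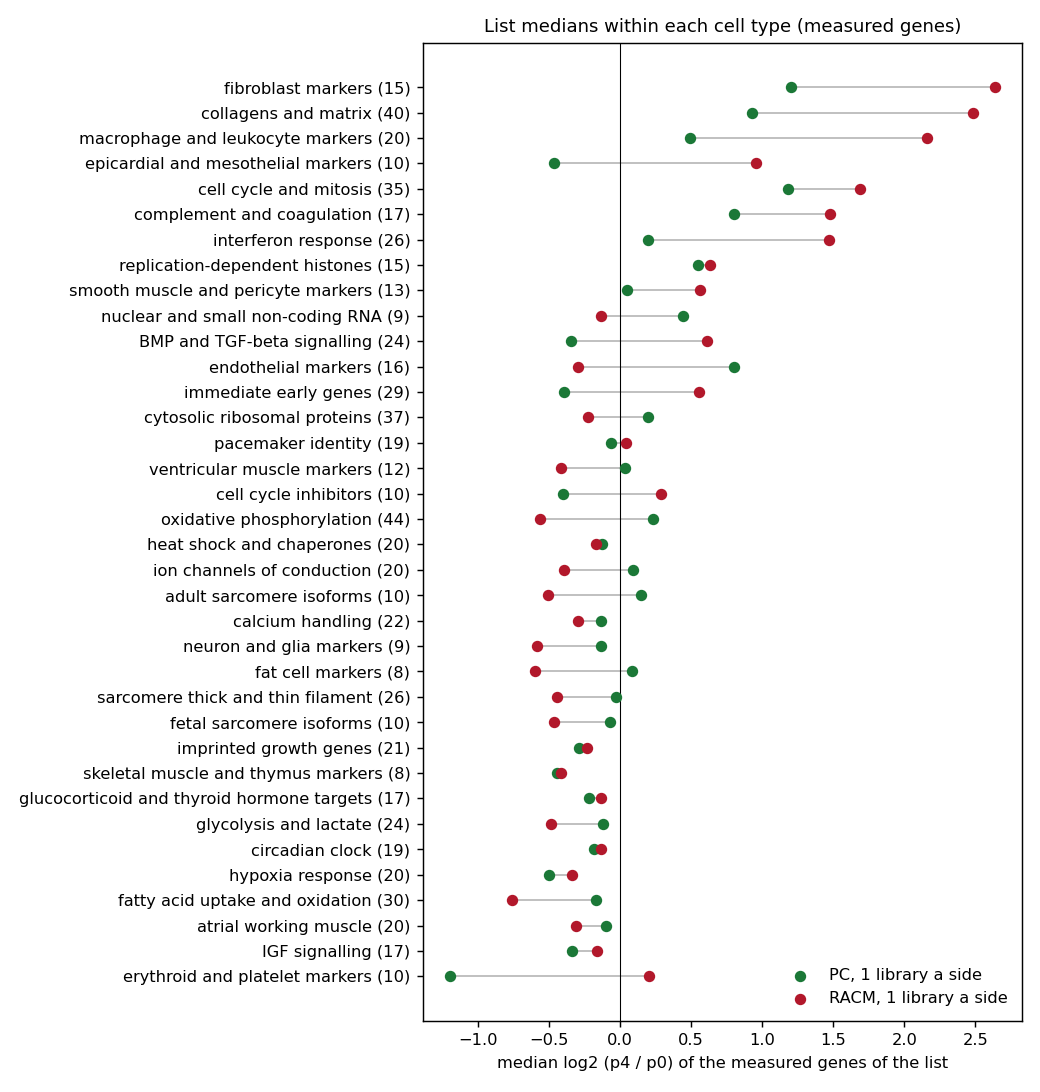
Median log2 p4 over p0 ratio (x axis) of the measured genes of each list with at least 8 of them (y axis, number measured in brackets), over those with more than 3 counts in both libraries of a cell type, in PC (green) and RACM (red), 1 library a side. Fibroblast, matrix and macrophage lists reach 2.64, 2.48 and 2.16 in RACM, cell cycle genes are above 1 in both, and pacemaker identity is near 0.

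Of 17 genes of insulin-like growth factor (IGF) signalling, 1 rose and none fell, against 1.34% and 0.286% of all genes. The list's median was -0.43, and ran from -0.50 (without RACM p0) to -0.08 (without PC p0) with 1 library left out. The called gene, Igfbp7, a secreted binding protein, rose from 22.6 to 57.1 CPM in PC and from 42.6 to 201 CPM in RACM (log2 fold change 1.79 ± 0.27, edgeR adjusted p = 0.00531). Igf2r, which clears the growth factor IGF2, did not pass although p4 was below p0 in both, at 918 and 463 CPM in PC and 864 and 481 CPM in RACM (-0.92 ± 0.24, adjusted p = 0.0824). Igf2 and the imprinted RNA H19 did not pass, with log2 fold changes of -0.43 ± 0.30 and -0.79 ± 0.22. Of the exon bases of Igf2, 64.5% are shared with another gene. Of 21 imprinted growth genes only Dcn was called, where 1.63% of all genes were called in either direction. This count depended on the libraries in the fit. Of 24 genes of BMP and TGF-beta signalling none was called, with Bmp7 at -1.02 and the receptor gene Tgfbr2 at 1.04 (adjusted p = 0.0799 and 0.0922). No gene was called among 19 circadian clock genes, 20 heat shock genes, 29 immediate early genes or 37 ribosomal protein genes. For immediate early genes the median depended on the libraries, at 0.47 without PC p4 and -0.3 without RACM p4.

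Kdm5d was the only call among 5 sex-linked genes, where 1.63% of all genes were called in either direction. This histone demethylase gene of the Y chromosome was at 8.57, 40.6 and 21.0 CPM in the p0, p2 and p4 libraries of PC and at 9.71, 45.2 and 37.1 CPM in RACM, and was called higher in p4 (log2 fold change 1.61 ± 0.32, adjusted p = 0.0205). Xist, the RNA of the silent X chromosome, was at 930, 716 and 868 CPM in PC and at 1146, 232 and 586 CPM in RACM (adjusted p = 0.546). The Y-linked helicase gene Ddx3y was at 24.1, 38.4 and 22.6 CPM in PC and at 18.4, 52.9 and 47.6 CPM in RACM (adjusted p = 0.568). Both p0 libraries thus had the least Kdm5d RNA and the most Xist RNA of their cell type, and the sexes of the pooled hearts are not in the labels. The part of this in the other differences was not tested.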

How the data were processed

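RNA of sorted cells was amplified to cDNA with a NuGEN kit and sequenced as pairs of 100 bases, per the labels' protocols. Reads were trimmed with Trimmomatic, aligned with HISAT2 to mm10 and counted with featureCounts, per the submitters' processing notes. The deposited values are whole fragment counts per gene over exons, with featureCounts 2.0.1 and no strand or multimapping option set, per the file headers. Genes that share exon bases or near-identical copies are therefore uncertain. Of 55487 gene IDs, 55141 matched a symbol in the name table. From 14141151 to 22290996 counts per library entered the analysis.

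Counts were scaled by the trimmed mean of M-values and tested with edgeR 4.0.16 (R 4.3.3), quasi-likelihood, with cell type as a block, on 4 libraries. Genes were kept by edgeR's filter for the p groups (minimum count 10, minimum total 15), and p-values were adjusted over all genes tested (Benjamini-Hochberg, threshold 0.05). The common biological coefficient of variation was 0.342. DESeq2 1.42.0 and limma 3.58.1 were alternatives. The product of cell type and p number was fitted on 6 libraries. The procedure was tested on simulated data.

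Named genes were 17 set by name, the 12 of smallest p in each direction with a mean of at least 10 CPM in the higher group, the same sign in both cell types and no predicted symbol, the 2 of smallest p in each of 39 lists, and 5 in each direction of the product test. Others were chosen after their values were seen. The members and lists were chosen with earlier results of these data known. Each label calls a pool of hearts a biological replicate. Promoter sequences are those of RefSeq, build GRCm38.p6. Some genes that the rule names are not reported here.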

Additional observations from a re-analysis of the deposited data

Results flagged for a closer look

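In 7 gene lists the median log2 ratio of p4 over p0 had opposite signs in PC and RACM, by at least 0.2 in each in lists with at least 10 measured genes. Only genes with more than 3 counts in both libraries of a cell type enter its median. Each ratio rests on 1 library a side, and the difference between the cell types was not tested. Oxidative phosphorylation genes (44) had a median of 0.23 in PC and -0.56 in RACM, a difference of 0.79. Endothelial markers (16 genes in PC and 15 in RACM) had medians of 0.80 and -0.29, a difference of 1.10. Their summed RNA did not follow these medians. It was at 373 and 375 CPM in PC p0 and p4, and at 428 and 473 CPM in RACM p0 and p4.

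The other 5 lists had a negative median in PC and a positive median in RACM. Cell cycle inhibitors (10 genes) had medians of -0.40 and 0.29, a difference of -0.69. Immediate early genes (29), which any handling of live cells can switch on, had medians of -0.39 and 0.56, a difference of -0.95. Genes of BMP and TGF-beta signalling (24) had medians of -0.35 and 0.61, a difference of -0.96. Erythroid and platelet markers (9 genes in each of PC and RACM) had medians of -1.20 and 0.20, a difference of -1.40. Epicardial and mesothelial markers had medians of -0.47 over 7 genes in PC and 0.95 over 9 in RACM, a difference of -1.42, while the blocked fit over all 10 measured gave a median of 1.48.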

How the results depend on the processing

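The number of genes called in p4 against p0, 296, moved to 117 with scaling to sarcomere transcripts, 674 with no filter, 572 with at least 5 CPM in both libraries of a p group, 563 by limma-voom, 2 with all 6 libraries, 6 with the p number as a number and 0 without the cell type block. After seeing the data, thinning all libraries to 1 total (116) and an adjusted p below 0.1 with all 6 libraries (129) were added. Leaving out 1 library was done in the fit of 6, since 4 libraries without 1 leave no residual degree of freedom, and gave 70 to 758. The higher and lower calls were 333 and 70 with the size factors of relative log expression, and 112 and 5 with sarcomere scaling. Of 60 named called genes, 35 stayed called with sarcomere scaling, 55 by DESeq2, 59 by limma-voom and 2 with all 6 libraries, and none changed direction in any setting. The product of cell type and p number gave 0 calls, 26 by DESeq2 and 9 to 733 with 1 library left out. The cause of these differences was not tested.

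Signs turned only in genes that were not called. Hcn4 was at 0.15 with sarcomere scaling and 0.083 without the block, and from -0.41 to 0.22 with 1 library left out. Tbx3 was at 0.20 and Tnni3 at 0.03004 with sarcomere scaling, and Agt at 0.03722 without the block. With 1 library left out the log2 fold change ran from -0.33 to 0.37 in Tbx3, -0.51 to 0.11 in Tnni3, -1.76 to 0.30 in Agt, -0.32 to 3.98 in Isl1, -1.02 to 0.0939 in Nppa, -1.21 to 0.18 in Xist, -0.20 to 3.48 in Hdc, -0.28 to 4.79 in Wdr66, -3.17 to 1.42 in Myl2, -0.32 to 2.53 in Aoc3 and -0.15 to 1.61 in Nfkbiz.

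The reported test compares p4 with p0 within each cell type, through the cell type block. No paired analysis was possible because, beyond cell type, the labels give the p0 and p4 libraries no number in common. With 1 library for each cell type and number, low genes are limited by depth.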

Other observations

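Genes of lung epithelium, looked up after their values were seen, differed between the RACM libraries. Scgb3a2, a secretoglobin of the airway, had 222 counts in RACM p0, 586 in RACM p2 and 0 in RACM p4, against 0, 1 and 0 in the matching PC libraries. Scgb1a1, the club cell marker, had 159, 362 and 2 counts in RACM. Sftpc, a surfactant gene of the alveolus, had 0, 1 and 294 counts in the same order and 0 in PC. The surfactant gene Sftpa1 had 7, 5 and 65 counts in the RACM libraries and 0 in PC. Sftpb, another surfactant gene, had 5, 1 and 30 counts in RACM and 7, 3 and 0 in PC. The secretoglobin counts were thus high in RACM p0 and p2, and the surfactant counts highest in RACM p4 with a few elsewhere.

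Yjefn3, which encodes a protein of the NAD(P)HX epimerase family, was at 357 CPM in PC p4 alone. It stood at 1.78 and 6.43 CPM in PC p0 and p2, and at 1.65, 4.75 and 3.17 CPM in the matching RACM libraries. The log2 fold change was 4.96 ± 1.20 and did not pass (edgeR adjusted p = 0.0556).

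Globin RNA differed among libraries of 1 cell type. Hbb-bs, a chain of adult haemoglobin, had 686 counts in PC p0, 1 in PC p2 and 281 in PC p4, and the RACM libraries had 873, 121 and 825. The p2 libraries were the low ones in both cell types.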
